A study of Mus musculus with 5 samples.

Results

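miR-216a and miR-217 (mmu-miR-216a and mmu-miR-217 in the files) are 2 mature miRNAs from neighbouring hairpins on mouse chromosome 11, and they were followed here through all 5 deposited libraries, among 593 miRNA names with a count. They were chosen by name, with their high values in cultured germ cells already known. Their levels in the culture are therefore given as a description, with no test. The small RNA came from testis cells of C57BL/6 mice. The first group was 1 library of a germ cell culture started from Thy1+ enriched cells and carried for about 10 passages. The second was 2 libraries of the freshly isolated Thy1+ fraction, retained on magnetic beads with an antibody against Thy1.2 and enriched for spermatogonial stem cells. The third was 2 libraries of the fresh Thy1- fraction, which those beads did not retain and which the titles call enriched for somatic cells, although the cell type field of these samples repeats the stem cell name. The sources used here give no culture medium, no feeder cells and no number of animals behind a library, so p-values measure only the spread between these libraries, which may be technical.

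A miRNA is cut from a hairpin RNA and guides silencing proteins to messenger RNAs that pair with its seed, the bases at positions 2 to 8. miR-216a and miR-217 are best known as miRNAs abundant in the pancreas, above all in its enzyme-secreting acinar cells. Their near neighbour miR-216b belongs to the same genomic group.

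The mature sequences are shown because the 3 neighbours differ in their seeds (RefSeq, GRCm38.p6, plus strand, seeds in capitals, 5′ to 3′). The names in the files correspond to the 5′ arms in RefSeq, and all 3 names were matched.
miR-216a: uAAUCUCAgcuggcaacuguga
miR-217: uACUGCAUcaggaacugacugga
miR-216b: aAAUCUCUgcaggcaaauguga
miR-216a and miR-216b were identical at 18 of 22 bases and at 6 of the 7 seed bases. The substitutions, with the miR-216a base first and positions counted from 1 at the 5′ end, were U1A, A8U, U11A and C17A. miR-217 shared 6 of 22 aligned bases with miR-216a and 2 of the 7 seed bases. Each of the 3 seeds occurred in 1 name of the 1679 mature mouse names in the table, so the 3 miRNAs form 3 seed groups. None of the 106 tag entries of these 3 miRNAs was also placed on another name (0 of 106), so no count was split between family members.

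The hairpins are shown because, as annotated, both members lie in an intron of 1 long RNA gene and the neighbour does not (mature 5′ arm in capitals).
Mir216a: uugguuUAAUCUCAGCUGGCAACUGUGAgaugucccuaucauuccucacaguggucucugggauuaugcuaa
Mir217: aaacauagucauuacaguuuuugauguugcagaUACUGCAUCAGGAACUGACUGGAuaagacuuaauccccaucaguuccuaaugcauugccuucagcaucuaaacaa
Mir216b: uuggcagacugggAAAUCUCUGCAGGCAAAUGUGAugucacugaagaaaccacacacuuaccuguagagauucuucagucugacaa
In GRCm38, Mir216a is at chr11:28757012-28757083 and Mir217 at chr11:28763728-28763835, with 6644 bases between them. Both lie in intron 2 of the long noncoding RNA gene Gm12082 (intron at chr11:28754147-28770484, GENCODE). Mir216b, at chr11:28746191-28746276, lies 10735 bases upstream of Mir216a and outside Gm12082. It is inside the RefSeq gene Mir217hg (chr11:28730633-28751781), which ends before Mir216a. The end of Mir217hg overlaps an exon of Gm12082 (chr11:28751633-28751784) on the same strand. Whether the annotated genes are parts of 1 transcript was not tested. Mir216c is annotated on the strand opposite Mir216b and was not analysed here.

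**Figure D1:**
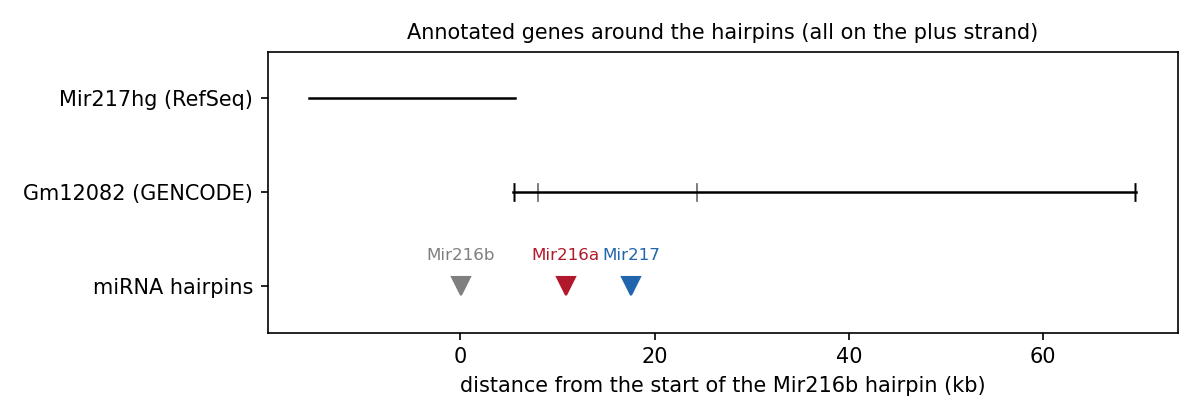
Positions of the 3 hairpins (triangles) and of 2 long noncoding RNA genes (lines, with exons of Gm12082 as ticks), by distance in kb from the start of the Mir216b hairpin. Mir216a and Mir217 fall within intron 2 of Gm12082, and Mir216b falls within Mir217hg only. The 2 annotated genes overlap on the same strand.

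miR-216a and miR-217 were scarce in every fresh library and moderately abundant in the culture. miR-216a had 693 counts in the culture library, 19 and 7 in the Thy1+ libraries and 16 and 16 in the Thy1- libraries. As counts per 1000000 miRNA counts of a library (CPM), this was 136 in the culture library, 20.3 and 7.39 in the Thy1+ libraries, and 6.28 and 3.26 in the Thy1- libraries. The culture value lay above all 4 fresh values, and the lower Thy1+ library was close to the higher Thy1- library. miR-217 had 587 counts in the culture, 8 and 8 in Thy1+, and 9 and 12 in Thy1-. In CPM this was 115 in the culture, 8.54 and 8.44 in Thy1+, and 3.53 and 2.44 in Thy1-. The culture value again lay above all 4 fresh values, as for 7.87% of 470 miRNAs. Both Thy1+ values lay above both Thy1- values, on few counts. Their counting intervals overlapped, with 3.69 to 16.8 CPM in Thy1+ replicate 1 and 1.61 to 6.70 CPM in Thy1- replicate 1. By abundance miR-216a ranked 143 and miR-217 ranked 155 among 510 detected names in the culture. In the fresh libraries their ranks ran from 344 to 414 for miR-216a and from 397 to 421 for miR-217, among 531 to 547 names.

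miR-216b, the hairpin upstream, had another profile. It stood at 43 counts or 8.41 CPM in the culture, 7.47 and 7.39 CPM in Thy1+ (7 counts each) and 0.392 and 0.611 CPM in Thy1- (1 and 3 counts). Its culture and Thy1+ values were nearly equal, and both lay above Thy1-. miR-216b made up 3.25% of the counts of the 3 neighbours in the culture (95% Clopper-Pearson interval 2.36% to 4.35%), 20.6% (8.70% to 37.9%) and 31.8% (13.9% to 54.9%) in the Thy1+ libraries, and 3.85% (0.0973% to 19.6%) and 9.68% (2.04% to 25.8%) in the Thy1- libraries. The culture share was below both Thy1+ shares and within the intervals of the Thy1- shares. The members, chosen with their high culture values known, made up 1280 of the 1323 culture counts of the 3 neighbours. A low miR-216b share in the culture follows from that choice, so nothing is read from it. These intervals and all others given here cover counting error only.

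**Figure D2:**
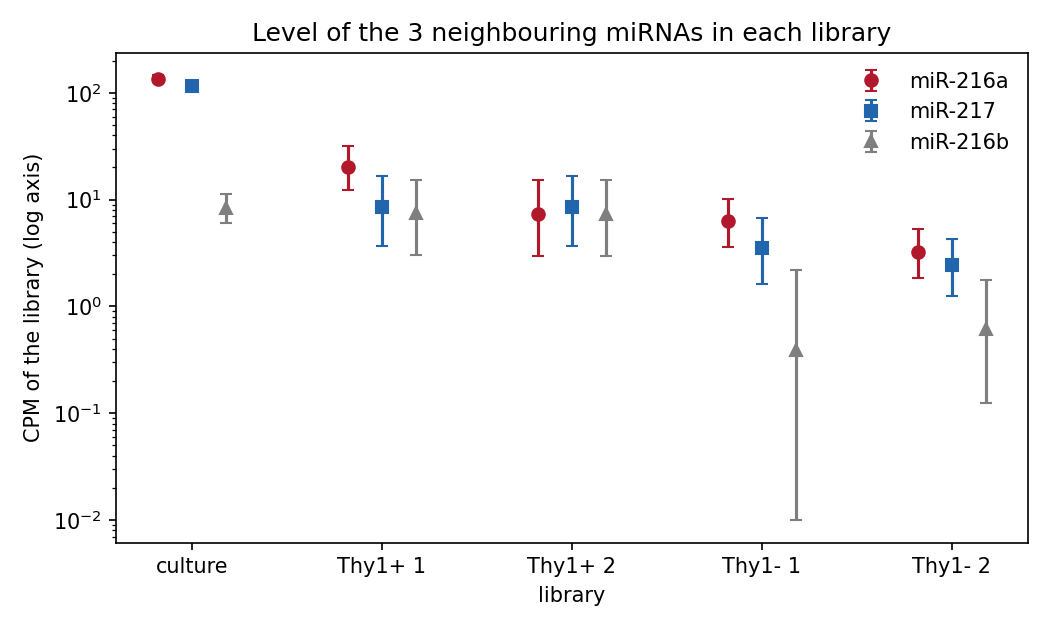
Level of miR-216a (circles), miR-217 (squares) and miR-216b (triangles) in each library, in CPM on a log axis, with exact 95% Poisson intervals of the counts as bars. The culture stands at 136 and 115 CPM for the 2 members, above every fresh library, while miR-216b is at 8.41 CPM in the culture and near 7.4 CPM in both Thy1+ libraries.

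Between each other the members kept a like balance. miR-216a held 54.1% of the counts of the pair in the culture (51.4% to 56.9%), 70.4% (49.8% to 86.2%) and 46.7% (21.3% to 73.4%) in Thy1+, and 64.0% (42.5% to 82.0%) and 57.1% (37.2% to 75.5%) in Thy1-. The culture share lay within the interval of each fresh library. With 15 to 28 counts of the pair in a fresh library, a moderate shift would not be detectable at this depth.

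The culture was first set beside the fresh Thy1+ fraction, the population it was derived from. miR-216a was at 136 CPM in the culture and 13.8 ± 9.12 CPM in Thy1+ (SD, n = 2). The culture level was 9.83 times that of the pooled Thy1+ libraries, with a 95% counting interval of 6.65 to 15.2. For miR-217 the values were 115 CPM in the culture and 8.49 ± 0.0681 CPM in Thy1+ (SD, n = 2), a ratio of 13.5 (8.26 to 23.8). miR-216b had a ratio of 1.13, and its interval of 0.608 to 2.24 included 1. On the scale of the fit across all miRNAs, which centres the bulk of them by TMM scaling, the log2 fold change was 4.90 (SE 0.78) for miR-216a, 5.40 (SE 0.64) for miR-217 and 1.83 (SE 0.74) for miR-216b. miR-217 and miR-216a were ranks 1 and 2 among 470 miRNAs tested, followed by miR-222 at 4.35. miR-216b ranked 62 and did not pass edgeR's quasi-likelihood test (adjusted p = 0.103, Benjamini-Hochberg). In that comparison 22.3% of all miRNAs were called, 8.94% higher and 13.4% lower in the culture (42 and 63 miRNAs, against 9 and 168 with total counts as the scaling). The members' part in this contrast is what drew attention to them, so nothing is read from their rank.

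Scaling matters for these sizes. Most miRNAs took a smaller share of the culture library, and with total counts in place of TMM the log2 fold changes of all miRNAs had a median of -1.73 instead of -0.09. Under total counts the log2 fold changes were 3.29 for miR-216a, 3.75 for miR-217 and 0.18 for miR-216b. Both members were higher in the culture under either scaling. miR-216b was nearly level under total counts and to the higher side under TMM, without passing the test under either.

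Against the fresh Thy1- fraction the culture differed more. miR-216a was at 136 CPM in the culture and 4.77 ± 2.14 CPM in Thy1- (SD, n = 2), 31.6 times the pooled level (22.2 to 46.6). miR-217 was at 115 CPM in the culture and 2.99 ± 0.769 CPM in Thy1- (SD, n = 2), 40.8 times the pooled level (26.4 to 66.4). The TMM log2 fold changes were 5.92 (SE 0.80) for miR-216a and 6.32 (SE 0.65) for miR-217, ranks 3 and 2 of 470, behind miR-206 at 6.55. miR-216b was higher in the culture library as well, with a log2 fold change of 4.88 (SE 0.83, edgeR adjusted p = 4.59e-03). Thy1- had 1 and 3 counts, and the pooled ratio of 15.7 had a counting interval of 5.70 to 60.2. miR-216b passed the filter on low counts through the culture and Thy1+ libraries alone, so nothing is read from this p-value. Of all miRNAs, 34.9% were called in this comparison, 18.1% higher and 16.8% lower in the culture (85 and 79 miRNAs, against 34 and 123 with total counts, where the median of all miRNAs was -1.19). Both culture comparisons rest on the same single culture library.

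**Figure D3:**
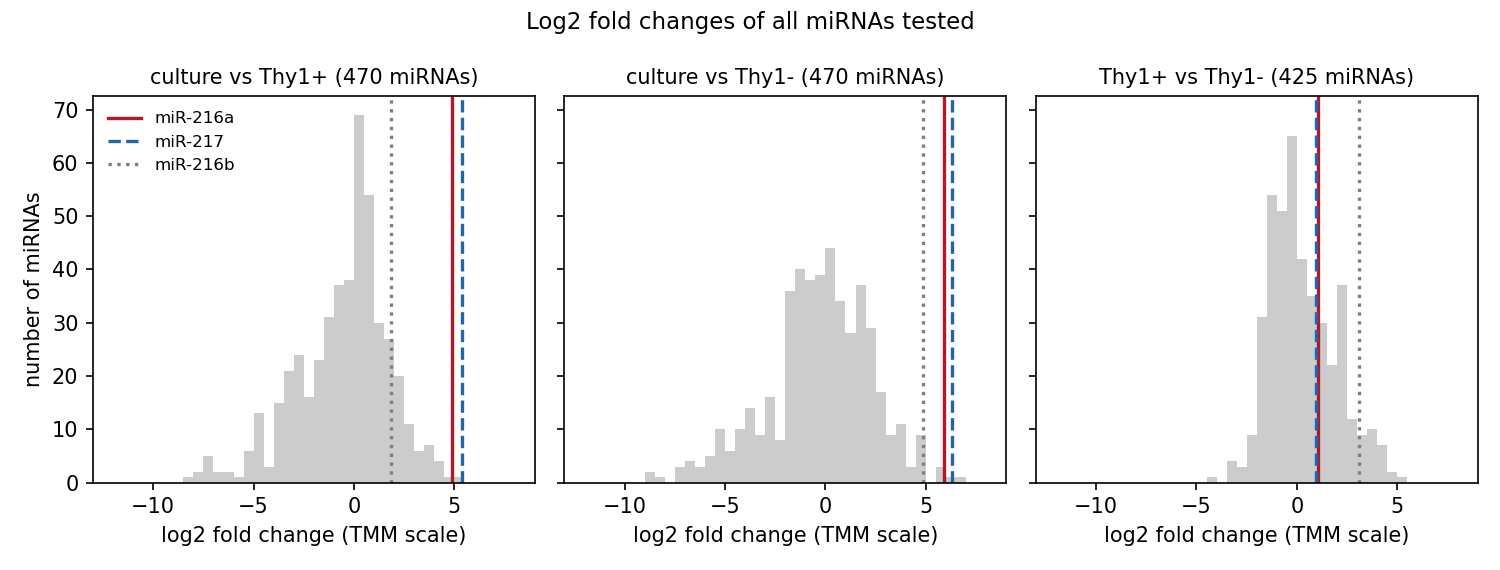
Distribution of TMM log2 fold changes over all miRNAs tested (grey bars, number of miRNAs per 0.5 log2 units) in 3 comparisons, with miR-216a (solid line), miR-217 (dashed line) and miR-216b (dotted line). The 2 members stand at the upper end where the culture is compared (4.90 to 6.32) and near 1 between the fresh fractions, where miR-216b stands at 3.11.

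Between the fresh fractions neither miRNA passed the test. The contrast of Thy1+ with Thy1- is not the one that chose the members, but it uses the same fresh libraries whose low values beside the culture were known. miR-216a averaged 13.8 ± 9.12 CPM in Thy1+ and 4.77 ± 2.14 CPM in Thy1- (SD, n = 2 each), a log2 fold change of 1.07 (SE 0.70, edgeR adjusted p = 0.279). miR-217 averaged 8.49 ± 0.0681 CPM in Thy1+ and 2.99 ± 0.769 CPM in Thy1- (SD, n = 2 each), a log2 fold change of 0.97 (SE 0.58, edgeR adjusted p = 0.242). With 7 to 19 counts in a library, a difference of this size was not detectable. miR-217 passed the filter on low counts through the Thy1+ libraries alone, so nothing is read from its p-value. Without Thy1+ replicate 1, which carried 19 of the 26 Thy1+ counts of miR-216a, its value was -0.031. miR-216b was higher in Thy1+, with 7.43 ± 0.0596 CPM against 0.502 ± 0.155 CPM in Thy1- (SD, n = 2 each). Its log2 fold change was 3.11 (SE 0.73, edgeR adjusted p = 0.0238). With 1 and 3 counts in Thy1-, miR-216b passed the filter on low counts through the Thy1+ libraries alone, so nothing is read from this p-value. By DESeq2 it did not pass (adjusted p = 0.0559, where the alternatives ran from 6.88e-03 to 0.0906). Of the 425 miRNAs tested here, 28.0% were called, 20.2% higher and 7.76% lower in Thy1+ (86 and 33 miRNAs, against 110 and 11 with total counts, where the median of all miRNAs was 0.51).

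The tags behind the counts give a view that did not enter the choice of the members. Nearly all culture tags began at the annotated first base, so the seeds were those printed above. Starts at base 1 held 97.5% of miR-216a counts (96.1% to 98.6%) and 98.5% of miR-217 counts (97.1% to 99.3%) in the culture. In the 4 fresh libraries pooled the share was 98.3% for miR-216a (57 of 58 counts, lower bound 90.8%) and 81.1% for miR-217 (30 of 37 counts, 64.8% to 92.0%). The leading culture tags are shown as DNA letters with the last base in capitals, because the members differed in where their 3′ end fell.
miR-216a, 22 bases: taatctcagctggcaactgtgA
miR-216a, 21 bases: taatctcagctggcaactgtG
miR-217, 22 bases: tactgcatcaggaactgactgG
miR-217, 23 bases: tactgcatcaggaactgactggA
The 22-base form of miR-216a, which is the full RefSeq sequence, had 625 of 693 counts in the culture, 17 of 19 and 4 of 7 in Thy1+, and 15 of 16 and 16 of 16 in Thy1-. It was the leading form in every library. The 21-base form had 21 counts in the culture and 1 count in 1 fresh library.

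miR-217 ended more variably. Its leading form in the culture was 1 base shorter than the RefSeq sequence. This 22-base form had 417 counts in the culture, 2 and 3 in Thy1+, and 1 and 7 in Thy1-. The full 23-base form had 101 counts in the culture, 3 and 3 in Thy1+, and 2 and 2 in Thy1-. Among templated tags that began at base 1, with tags holding an unread base N included, the 23-base form made up 18.5% in the culture (101 of 546, 15.3% to 22.0%). Its share was 60.0% (3 of 5, 14.7% to 94.7%) and 42.9% (3 of 7, 9.90% to 81.6%) in Thy1+, and 50.0% (2 of 4, 6.76% to 93.2%) and 20.0% (2 of 10, 2.52% to 55.6%) in Thy1-. The culture had the lowest of the 5 shares, yet it lay within the wide intervals of 4 of 4 fresh libraries. In the 4 fresh libraries pooled the share was 38.5% (10 of 26, 20.2% to 59.4%). The culture share lay just below that interval, which overlapped the interval of the culture and holds no spread between libraries. With 1 library against 4, no permutation of libraries can give a p below 0.2, so this was not tested. A 3′ tail that the hairpin does not encode was seen on 20 of 587 miR-217 culture counts (3.41%, 2.09% to 5.21%), 13 of them a single T and 6 a single A, and on 10 of 693 miR-216a culture counts (1.44%, 0.694% to 2.64%).

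**Figure D4:**
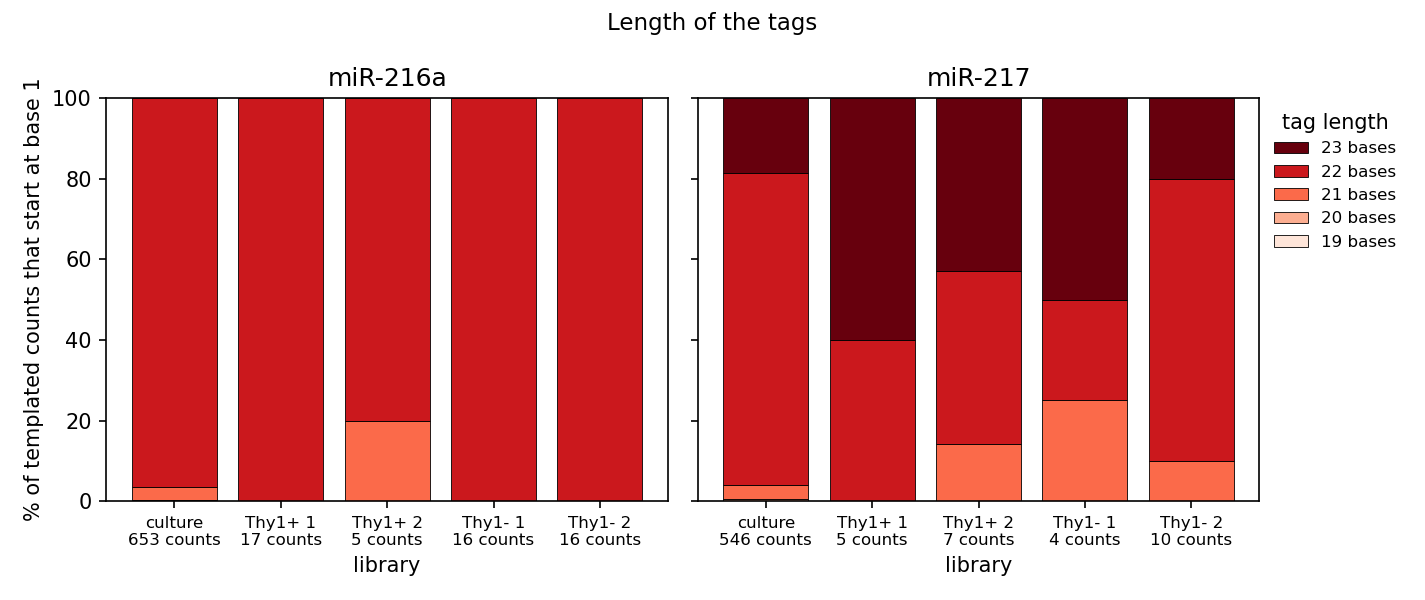
Length of templated tags that begin at base 1, as a percentage of such counts in each library (number below each bar), for miR-216a and miR-217. miR-216a is almost wholly 22 bases long in 4 of 5 libraries, while miR-217 is a mixture of 22 and 23 bases, with 18.5% of 23 bases in the culture.

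Some of the few fresh miR-217 counts were not full-length miR-217. They are shown because they make up 7 of its 37 fresh counts (mismatched bases in capitals, DNA letters).
Thy1+ replicate 1, 1 count: GcaggaactgaGtgg
Thy1+ replicate 1, 1 count, and Thy1- replicate 1, 2 counts: TaggaactgaGtgga
Thy1- replicate 1, 1 count: gcatTaggaCctgac
Thy1- replicate 1, 1 count: gcatTaggaCctgact
Thy1- replicate 2, 1 count: caggaactAaGtgga
All were 15 or 16 bases long, began at base 5, 8 or 9 and carried 2 mismatches, the most the placements hold. Tags with 2 mismatches were 18.9% of fresh miR-217 counts (7.96% to 35.2%) and 0.341% of its culture counts (0.0413% to 1.23%), and 0 of 587 culture counts were such short inner pieces. miR-216a had 1 such piece among 58 fresh counts. Over all miRNAs, tags with 2 mismatches, whatever their length or start, held 0.801% of the culture counts and between 0.984% and 2.16% of the counts of the fresh libraries. Counting only tags that start within 1 base of base 1, an alternative chosen after these tags were seen, miR-217 had 583 counts in the culture, 6 and 8 in Thy1+, and 5 and 11 in Thy1-. Its log2 fold change was then 5.65 for culture against Thy1+ and 6.89 for culture against Thy1-. miR-216a, with 681 counts in the culture, 19 and 6 in Thy1+, and 16 and 16 in Thy1-, barely moved.

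Other miRNAs known from the pancreas were described from a list. It held miR-216b, miR-375 and the miR-7 group, known from islets, miR-148a with its minor strand, known from acinar cells among others, and miR-802. Of these 8, miR-216b had a culture CPM above all 4 fresh libraries, and miR-148a, miR-148a* and miR-7a* had one below all 4. Of 470 miRNAs, 7.87% were above and 55.7% below in this way. The margin of miR-216b was small, at 8.41 CPM in the culture and 7.47 CPM in Thy1+ replicate 1. Of 7 list members tested for culture against Thy1+, edgeR called 0, beside 22.3% of all miRNAs, with 1 at an unadjusted p under 0.05 (miR-216b). DESeq2 also called 0, and with no filter on low counts 1 fell (miR-375). Their median log2 fold change was -0.51, beside -0.09 over all miRNAs. Under total counts 3 of 7 fell (miR-148a, miR-148a* and miR-7a*). For culture against Thy1-, 2 of 7 were called higher and 1 lower, near the shares of 18.1% and 16.8% over all miRNAs, and the median was -1.21 beside -0.15 over all miRNAs. As the culture is 1 library, these p-values hold no spread between cultures. The 2 called higher were miR-7b and miR-216b, the latter with the filter limit given above for this comparison. miR-148a was lower, with 3386 CPM in the culture against 24285 and 29614 CPM in Thy1- (log2 fold change -1.97, SE 0.63, edgeR adjusted p = 0.0401). Over the alternatives its adjusted p ran from 9.20e-03 to 0.148. That call was lost without Thy1- replicate 2 (edgeR adjusted p = 0.0679) or without either Thy1+ replicate (0.148 without replicate 1 and 0.138 without replicate 2), and with tied tags left out (0.0504). miR-7b had 51.7 CPM in the culture library, 92.8 and 70.7 in the Thy1+ libraries, and 14.9 and 3.67 in the Thy1- libraries. The fit gave it a log2 fold change of 3.63 (SE 0.76, edgeR adjusted p = 9.09e-03) for culture against Thy1- and 2.70 (SE 0.70, edgeR adjusted p = 0.0293) for Thy1+ against Thy1-. Without Thy1+ replicate 2 the first of these was lost (edgeR adjusted p = 0.0710, with 8.42e-06 the lowest of the alternatives). The second was lost without any 1 of the replicates except Thy1- replicate 1 (edgeR adjusted p between 0.0518 and 0.188) and with tags starting near base 1 only (0.0662).

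miR-375, which is enriched in islet cells, had 11.7 CPM in the culture library, 293 and 109 in the Thy1+ libraries, and 139 and 3.67 in the Thy1- libraries. It was lower in the culture than in both Thy1+ libraries, but the spread was large and it passed in neither culture comparison (edgeR adjusted p = 0.298 against Thy1+ and 0.507 against Thy1-). With no filter on low counts it passed against Thy1+ (edgeR adjusted p = 0.0310, log2 fold change -2.39, where the alternatives ran from 1.99e-03 to 0.691). With the main settings (TMM, filter on low counts) miR-7a, miR-7a* and miR-148a* did not pass in any of the 3 comparisons. Some alternatives called them. Under total counts miR-7a* and miR-148a* fell against Thy1+, as given above. miR-7a was then higher in Thy1+ than in Thy1- (edgeR adjusted p = 0.0419). With no filter on low counts miR-7a was higher in the culture than in Thy1- (edgeR adjusted p = 0.0446). For Thy1+ against Thy1-, 2 of 7 list members were called higher (miR-7b, and miR-216b with the filter limit given above) and 0 lower. These were near the shares of 20.2% and 7.76% over all miRNAs, and the median was 1.14 beside -0.07 over all miRNAs. DESeq2 gave 1 higher and 1 lower there, the latter miR-148a (adjusted p = 0.0297). By edgeR miR-148a did not pass there with the main settings (adjusted p = 0.0599), but did with no filter on low counts (adjusted p = 0.0325). The log2 fold change of miR-375 between the fresh fractions ran from 0.031 to 5.26 when 1 library was left out. miR-802 had 1 count in the culture, 0 and 0 in Thy1+, and 2 and 2 in Thy1-, too few to test.

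**Figure D5:**
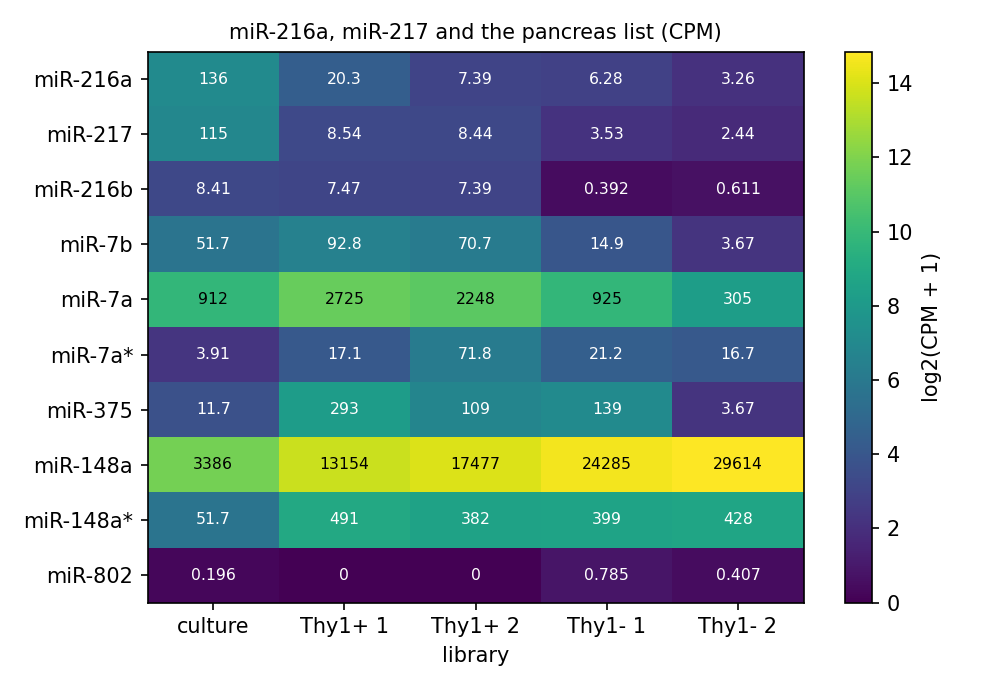
CPM of miR-216a, miR-217 and the 8 other listed miRNAs in the 5 libraries, printed in each cell and coloured by log2(CPM + 1). miR-216a and miR-217 are higher in the culture than in any fresh library, at 136 and 115 CPM. In the culture column miR-148a and miR-7a are higher than both members, at 3386 and 912 CPM. There miR-375 and miR-7a* are at 11.7 and 3.91 CPM, below both Thy1+ libraries.

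The profiles most like those of the members over the 5 libraries were found by distance, as the root mean square difference of centred log2(CPM + 1) values. Of 469 names compared, the nearest to miR-216a was miR-217 (0.449), and the nearest to miR-217 was miR-216a. This mutual first rank is a description, since both were picked for the same culture values. Next came miR-146b, a relative of the immune regulator miR-146a, at 0.477 from miR-216a and 0.504 from miR-217. miR-222, which is known for promoting proliferation, followed at 0.570 from miR-216a and 0.507 from miR-217. miR-34c* and miR-21 completed the 5 names for miR-216a, and miR-221 and miR-21 those for miR-217. miR-216b was at rank 23 from miR-216a (1.28) and at rank 21 from miR-217 (1.27). The median distance over all names was 2.34 and 2.39. miR-146b stood at 6885 CPM in the culture library, 1362 and 998 in the Thy1+ libraries, and 439 and 198 in the Thy1- libraries. Its order of libraries was the same as that of miR-217, at higher levels.

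The libraries held 5110007 miRNA counts for the culture, 937002 and 947687 for Thy1+, and 2548234 and 4909753 for Thy1-. Levels of marker miRNAs, given as CPM, moved between the groups as well. On this scale most miRNAs took a smaller share of the culture library, as said above for scaling. Of 470 miRNAs, 7.87% had a culture CPM above all 4 fresh libraries and 55.7% had one below all 4. Among mesenchymal miRNAs 4 of 6 were above all 4 (miR-143, miR-199a-3p, miR-199b and miR-214, of which miR-199a-3p and miR-199b are 1 measurement) and miR-145 was below. The mesenchymal list summed to 64977 CPM in the culture, 27211 to 38089 CPM in Thy1+ and 30853 to 46252 CPM in Thy1-. The germ cell list summed to 217819 CPM in the culture, 71350 to 153244 CPM in Thy1+ and 10375 to 53017 CPM in Thy1-, and 1 of 5 was above all 4 (miR-34c). miR-34c alone made up 195532 CPM of the culture sum, and the other 4 summed to 22287 CPM in the culture library, 47759 and 47961 in the Thy1+ libraries, and 4223 and 1877 in the Thy1- libraries, so that the culture was below Thy1+ without it. White blood cell miRNAs summed to 937 CPM in the culture, 14904 to 26540 CPM in Thy1+ and 1346 to 2017 CPM in Thy1-, with 0 of 5 above and 3 below. miR-142-3p alone made up 818 CPM of the culture sum. The other 4 summed to 118 CPM in the culture library, 586 and 1268 in the Thy1+ libraries, and 63.6 and 51.9 in the Thy1- libraries. Without miR-142-3p the culture was thus above Thy1- and below Thy1+. miR-155 had 92.8 CPM in the culture library and 9.81 and 6.72 in the Thy1- libraries. Both endothelial products of miR-126 were below, at 562 CPM in the culture, 1918 to 2605 CPM in Thy1+ and 964 to 1678 CPM in Thy1-. The liver and muscle list summed to 105 CPM in the culture, 1324 to 1378 CPM in Thy1+ and 297 to 1008 CPM in Thy1-, with miR-122 above, miR-1 and miR-133a below, and miR-133a and miR-133b at 0 counts in the culture. The muscle miRNA miR-206, which was on no list and was added after its value was seen, ran the other way from miR-1 and miR-133a, with 1062 CPM in the culture library, 149 and 362 in the Thy1+ libraries, and 33.7 and 14.9 in the Thy1- libraries. TMM scaling gave other sizes, as median log2 fold changes for culture against Thy1+ and then Thy1-. Mesenchymal miRNAs had 2.66 and 1.74 (miR-145 had 1.24 and -0.19), and germ cell miRNAs 0.38 and 3.71. White blood cell miRNAs had -2.91 and 0.08, and endothelial miRNAs -0.25 and -0.06. The liver and muscle list, with 3 of 4 tested, had -2.19 and -1.66. Over all miRNAs the medians were -0.09 and -0.15. Against Thy1+, edgeR called 5 of 6 mesenchymal and 1 of 3 liver and muscle miRNAs higher and 3 of 5 white blood cell miRNAs lower. It called 0 germ cell and 0 endothelial miRNAs there, beside 8.94% higher and 13.4% lower over all miRNAs. Against Thy1-, 3 mesenchymal, 4 of 5 germ cell, 1 white blood cell and 1 liver and muscle miRNA were called higher. There 0 endothelial miRNAs were called, beside 18.1% higher and 16.8% lower over all miRNAs. The part of any of these cell types in the levels of miR-216a and miR-217 was not tested. In such mixed samples, more cells of a type and more RNA per cell cannot be told apart.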

How the data were processed

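Small RNA was sequenced from 5 libraries of mouse testis cells. The deposited files give raw read counts per distinct sequence tag, with the mature miRNA, position and mismatches of each placement. Per the file names, which the authors chose, tags of 15 to 35 bases were annotated to miRBase 12.0. DESeq appears in the submitters' processing notes, with no role. The aligner and the genome build: not given in the sources used here. The authors' placements treat an unread base N as no mismatch.

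Each tag was given to its placement with the fewest mismatches. Ties were split equally and sums rounded. Groups came from the titles. Differential abundance was tested with edgeR 4.0.16 under R 4.3.3 (quasi-likelihood test, TMM, filterByExpr, two-sided, Benjamini-Hochberg over all miRNAs, threshold 0.05), on the 4 fresh libraries or on all 5 for culture comparisons, where 1 culture library takes its spread from the fresh ones. The script was tested on simulated counts. Alternatives were DESeq2 1.42.0, other scaling, no filter, other ways of counting tags, leaving out libraries and a replicate term. Intervals are exact, at 95%. Each edgeR SE was worked back from the log2 fold change and the F statistic of the test. In culture comparisons it holds no spread between cultures, and for the members it is a description only. Totals are miRNA counts, not sequencing depth. Described miRNAs were the members, every miRNA of the listed groups and the 5 nearest profiles. Members and lists were chosen with earlier results of these data known.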

Additional observations from a re-analysis of the deposited data

How the results depend on the processing

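The log2 fold changes of both members against either fresh fraction stayed positive under every alternative run. For culture against Thy1+, total counts gave 3.29 for miR-216a. miR-217, whose Thy1+ replicates were almost equal, gave 3.75 with total counts, 5.46 with RLE scaling, 5.52 with no filter, 5.47 with DESeq2, 5.70 with exact matches only, 5.49 without tied tags, 5.28 with the replicate block and 5.65 with tags starting near base 1 only. For culture against Thy1-, total counts gave 4.85 for miR-216a and 5.27 for miR-217, and miR-217 gave 6.89 both with exact matches and with tags starting near base 1. Leaving out 1 fresh library at a time gave 3.92 to 5.97 (miR-216a) and 4.93 to 5.54 (miR-217) against Thy1+, and 5.62 to 6.07 and 6.12 to 6.30 against Thy1-. For Thy1+ against Thy1- it gave -0.031 to 1.76 for miR-216a, with -0.031 found without Thy1+ replicate 1, and 0.80 to 1.16 for miR-217. Between the fresh fractions miR-217 passed the filter on low counts neither without a Thy1- replicate nor with exact matches only, and miR-216b passed it in none of the 4 fits that leave out a library.

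The number of miRNAs called was 119 for Thy1+ against Thy1- (0 to 137 leaving out 1 library, 0 by edgeR without either Thy1+ replicate, where 112 and 105 had an unadjusted p under 0.05), 105 for culture against Thy1+ (177 with total counts, of which 9 were higher, 0 to 120 leaving out 1 library, again 0 without either Thy1+ replicate, where 142 and 117 had an unadjusted p under 0.05) and 164 for culture against Thy1- (41 to 128). Whether fresh libraries with the same replicate number came from the same isolation is not known. Their deviations from the group means had a correlation of -0.07 over 425 miRNAs, which cannot settle it. With the replicate block 32 were called for Thy1+ against Thy1-, where miR-216b missed the threshold (edgeR adjusted p = 0.0906). The block also ended the miR-148a call against Thy1- (edgeR adjusted p = 0.0739) and brought miR-375 past the threshold against Thy1+ (-4.07, edgeR adjusted p = 1.99e-03), and changed no other call among the members and the pancreas list. Among listed miRNAs that did not pass, the sign turned for miR-7a against Thy1+ (-1.45 with total counts, -0.26 with the replicate block, -0.12 without Thy1- replicate 1, -0.39 to 0.48 over the libraries left out), miR-7b against Thy1+ (-0.66 with total counts), miR-375 against Thy1- (2.37 without Thy1- replicate 1, -2.36 without Thy1- replicate 2), and between fresh fractions miR-7a* (-0.51 without Thy1+ replicate 2, 1.21 without Thy1+ replicate 1) and miR-148a* (0.079 with total counts). The cause was not tested. Depth limits the fresh values: 1 miRNA count was worth 1.07 CPM in Thy1+ replicate 1.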
